A study of Mus musculus with 16 samples.

Results

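Rn45s is the gene name for the 45S pre-ribosomal RNA, the long precursor that RNA polymerase I makes in the nucleolus. It was examined here at the one copy given by its mm9 position, chromosome 17, 39979939 to 39985776, plus strand, a stretch of 5838 bases. Whether this stretch holds the whole precursor was not checked, so positions and shares below refer to the stretch alone. This locus is 1 of 42917 transcribed regions in the nuclear RNA-seq lists. It was chosen from its CLIP peaks and its nuclear RNA level, so those levels are given as a description and without a test. The files carry assembly identifiers and no gene symbols, so the name rests on the position alone. The RefSeq table of another build, GRCm38.p6, does not hold Rn45s but lists on chromosome 17 Rn18s-rs5, a pseudogene of 1849 bases related to the small-subunit rRNA. Its position was not set against the peaks because the builds differ.

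The precursor is cut and trimmed into the RNA of the small ribosomal subunit and into RNAs of the large subunit, and the spacers between them are discarded. The external spacer at its 5′ end comes before the small-subunit RNA and is degraded in the nucleolus. Ribosomal DNA is present in many tandem copies, most of them absent from genome assemblies. Reads from any near-identical copy may therefore be placed at this locus, and its values cannot be assigned to this copy.

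The series profiled CTCF, a zinc-finger protein of insulators and domain boundaries, in female mouse embryonic stem (ES) cells. CLIP recovers RNA fragments crosslinked to a protein by UV light. It was done on nuclear lysate with anti-FLAG beads in 2 UV-treated libraries of undifferentiated cells grown with LIF (day 0) and 2 of cells kept for 3 days in suspension with no LIF (day 3). Nuclear RNA-seq, depleted of ribosomal RNA, had 1 library per day, and ChIP with a CTCF antibody had 2 day 0 libraries and 1 of day 3. CLIP and RNA-seq samples carry the strain label CAST/Ei x 129/Sv/Jae, and ChIP samples carry 129S1/CastEiJ x 129S1. The labels do not say which protein carries the FLAG tag. ES cell markers could not be checked by symbol. CLIP libraries without UV were not analysed here, so no background without crosslinking stands beside the peaks. Whether replicates came from separate cultures is not stated, so their spread may be technical.

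All 4 CLIP lists held many peaks on the transcribed strand of Rn45s. Day 0 replicate 1 had 67 peaks, which covered 1497 of the 5838 bases (25.6%). Day 0 replicate 2 had 53 peaks over 1999 bases (34.2%). Day 3 replicate 1 had 50 peaks over 1404 bases (24.0%), and day 3 replicate 2 had 71 peaks over 2500 bases (42.8%). Peak number and covered bases did not order the libraries alike, since replicate 1 of day 0 had the second-highest number of peaks and the second-lowest coverage. The lists differ in size, from 114016 to 213181 peaks at day 0 and from 106382 to 165695 at day 3, and at each day the longer list covered more of the locus.

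Peaks over Rn45s were narrow and high in score. Their median width was 10, 16, 13 and 5 bases in the 4 libraries (day 0 replicates 1 and 2, then day 3 replicates 1 and 2), against 46, 38, 47 and 36 bases for the whole lists. Peaks of at most 3 bases made up 22.4%, 18.9%, 30% and 47.9% of those over the locus, and 2.48%, 3.54%, 2.24% and 0.977% of the lists. Many of the peaks counted here were thus only a few bases long, while the widest ran to 144, 293, 157 and 268 bases. The score, a whole number that the authors' lists give for each peak, had a median of 1157, 698, 1423 and 1403 over Rn45s, and of 597, 309, 610 and 390 in the lists. Of the peaks over the locus, 79.1%, 77.4%, 74.0% and 73.2% scored above the median of their own list.

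Some of these peaks were among the highest in the genome. The top peak over Rn45s ranked 22, 8, 11 and 3 by score in the 4 lists, with scores of 17080, 16485, 20714 and 54151. Among the 100 highest scores of each list, 11, 13, 11 and 20 lay over this locus. By summed score Rn45s ranked 3, 3, 12 and 1 among the 42917 regions. By peak bases per kb it was compared with expressed regions, those with an FPKM of 1 or more and a length of 1 kb or more. It ranked 18 and 11 of 15716 at day 0, and 15 and 3 of 14761 at day 3. FPKM is the RNA-seq level scaled to transcript length and library size. The median expressed region had 2.21, 5.10, 2.62 and 5.24 peak bases per kb.

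**Figure D1:**
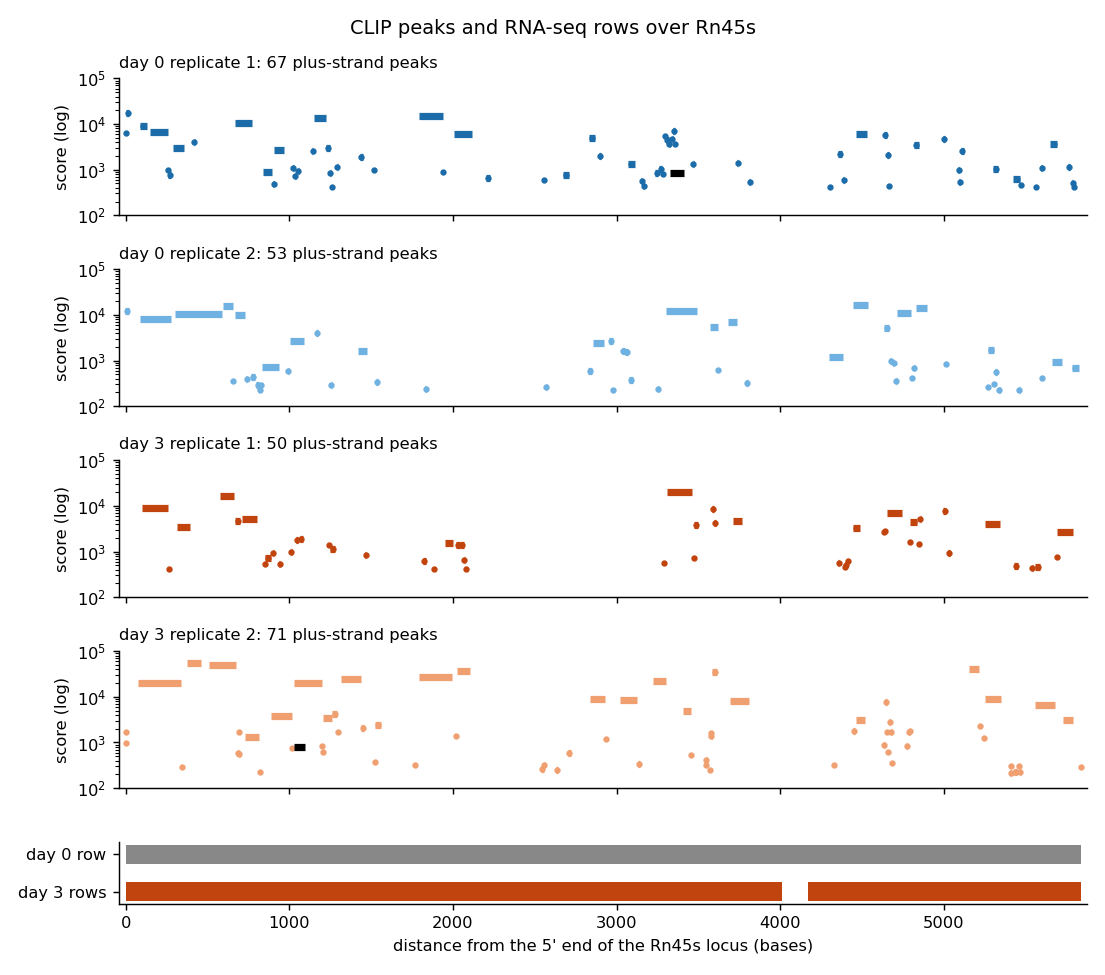
CLIP peaks over the Rn45s locus in the 4 libraries, with distance from the 5′ end in bases on the x axis and the peak score as deposited on a log y axis. Coloured segments are plus-strand peaks (a dot marks the centre), black segments are the minus-strand peaks, and the lowest panel shows the RNA-seq rows of day 0 and day 3, with a gap of 158 bases between the day 3 rows where no library has a peak.

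The highest peak lay at a different place in each library. Counted from the first base of the locus as position 1, it started at 6 in day 0 replicate 1 and at 4449 in day 0 replicate 2. In day 3 replicate 1 it started at 3308, and in day 3 replicate 2 at 376. The 5 highest peaks of a library held 33.1%, 43.8%, 42.3% and 48.2% of its summed score over the locus. These 5 were among 67, 53, 50 and 71 peaks, so a few peaks held a large part of the score. No one peak led in 2 libraries.

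Coverage was higher over the first 1000 bases than over the rest of the locus as a whole. Of the first 1000 bases, 47.2% and 78.5% lay under a peak at day 0, and 48.4% and 72.9% at day 3. Over the rest of the locus the shares were 21.2%, 25.1%, 19.0% and 36.6%. This order held in each of the 4 libraries, although in day 3 replicate 2 the bin with the highest share was positions 1001 to 1500, at 81%. The first 1000 bases held 31.9%, 36.9%, 28.3% and 30.4% of the summed score over the locus. Positions 1501 to 3000 were covered at 24.8%, 9.20%, 7.47% and 31.3%, below the share over all bases beyond the first 1000 in 3 libraries and above it in day 0 replicate 1. Within them, positions 2001 to 2500 had no covered base in day 0 replicate 2, and positions 2501 to 3000 had none in day 3 replicate 1. At positions 3001 to 3500 the shares were 27.2%, 51.0%, 35.6% and 49.2%. The next bins, positions 3501 to 4000 and 4001 to 4500, were at 18.5% and 15.8% by the mean of the libraries, and day 0 replicate 1 had its lowest share, 2.80%, in the first of these.

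**Figure D2:**
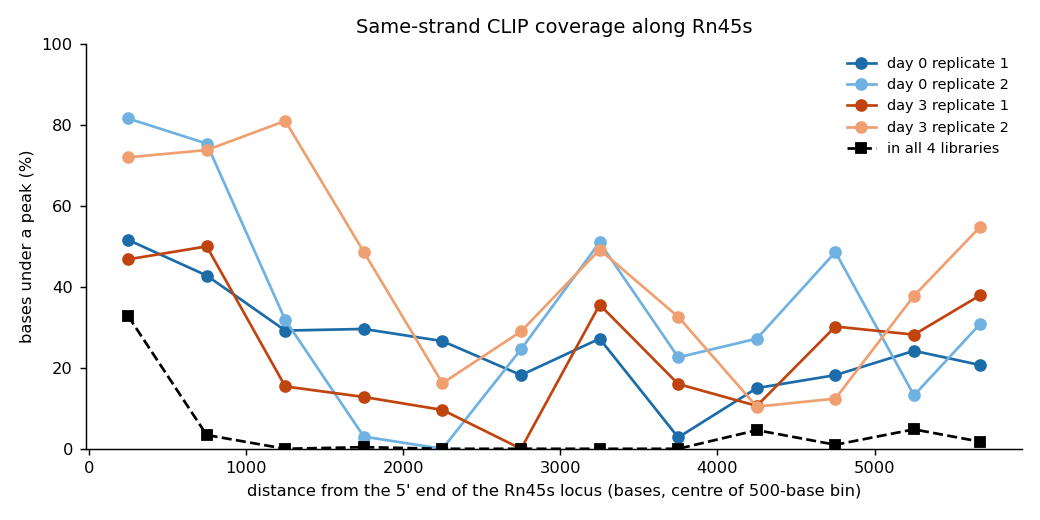
Share of bases under a plus-strand CLIP peak (y axis, percent) in bins of 500 bases along Rn45s (x axis, bases from the 5′ end; the last bin has 338 bases). Coloured lines are the 4 libraries and the dashed black line is the share covered in all 4, which is 32.8% in the first bin and at most 4.80% in the others.

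The libraries resembled one another along the locus to differing degrees. Over 12 bins of 500 bases, Spearman's rho of covered bases was 0.39 between the day 0 replicates and 0.60 between the day 3 replicates. Between days it was 0.44 for the replicates numbered 1, 0.50 for those numbered 2, 0.74 for day 0 replicate 1 with day 3 replicate 2, and 0.75 for day 0 replicate 2 with day 3 replicate 1. Bins share sequence composition and mappability, so these values are a description. Both pairs of replicates fell within or below the range of the pairs from different days.

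Coverage in 2 or more libraries was common, and coverage in all 4 was rare. Of the 5838 bases, 3600 (61.7%) lay under a peak in at least 1 library. At least 2 libraries covered 2442 bases, which are 41.8% of the locus and 67.8% of the covered bases. A total of 1158 bases were covered in 1 library alone, 1325 in 2, 876 in 3 and 241 (4.13%) in all 4. Of the 22 stretches covered in all 4 libraries, 14 started in the first 1000 bases, and 5 were at least 10 bases long. The longest was 107 bases, chromosome 17, 39980089 to 39980195 (positions 151 to 257). The highest-scoring peak across it had a score of 6717 and 8264 at day 0 and of 9046 and 20501 at day 3.

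The other 4 stretches were short. One of 29 bases, 39980040 to 39980068, and one of 24 bases, 39980256 to 39980279, lie on either side of the 107-base stretch. The remaining ones were 23 bases at 39984401 to 39984423 and 17 bases at 39985249 to 39985265. The first of these had its highest score, 16485, in day 0 replicate 2, and the second had its highest, 9107, in day 3 replicate 2. At least 3 libraries covered 44 bases at positions 3410 to 3453 and 60 bases at positions 595 to 654, with no base in all 4. Sequences of these stretches are not printed, since no mm9 sequence was used here.

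Peaks of one library were met by another library more often at Rn45s than over the whole lists. Of the 67 peaks of day 0 replicate 1, 41 (61.2%) were overlapped by at least 1 base of a peak of day 0 replicate 2, against 17.8% of all peaks of that list. In the other direction 28 of 53 (52.8%) were, against 9.78%. At day 3, 34 of 50 peaks of replicate 1 (68.0%) and 34 of 71 of replicate 2 (47.9%) were met by the other, against 11.9% and 7.57%. Pairs from different days ranged from 47.8% to 79.2%. Since 24.0% to 42.8% of this locus was covered in each library, some overlap arises whatever the positions, and no test of it was made.

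The same bases were not set apart by day. Those covered in both day 0 libraries and neither day 3 library numbered 140, and the reverse numbered 195. Grouping the libraries by replicate number gave 48 bases for replicate 1 of both days and 360 for replicate 2, and the crossed pairs gave 374 and 208. The counts by day fell within the range of these other pairings.

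Long stretches carried no peak in any of the 4 lists. The longest was 485 bases, 39983755 to 39984239 (positions 3817 to 4301), and the next was 311 bases, 39982165 to 39982475 (positions 2227 to 2537). The 485-base stretch includes the 158 bases, 39983952 to 39984109, that lie between the 2 RNA-seq rows of day 3. At day 0 a single RNA-seq row ran across this gap. Whether reads can be placed uniquely in these stretches was not tested.

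The peaks stopped with the locus. In day 0 replicate 2 the first peak (positions -1 to 19, score 12196) began just before the first base of the locus. Apart from peaks that overlap the locus, no CLIP peak of either strand lay in the 10 kb on either side in any library. The nearest other plus-strand peak on either side was 332 kb away in both day 0 libraries, 1105 kb away in day 3 replicate 1 and 24.7 kb away in day 3 replicate 2.

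The peaks were almost all on the transcribed strand. On the opposite strand there was 1 peak in day 0 replicate 1, none in day 0 replicate 2, none in day 3 replicate 1 and 1 in day 3 replicate 2. These 2 were at different places. The first was 89 bases at 39983265 to 39983353 with a score of 842, and the second was 66 bases at 39980970 to 39981035 with a score of 798. Of the second, 65 bases lay under plus-strand peaks of the same library, and of the first 19 bases did. Summed over the 4 libraries, 2 of 243 peaks (0.823%, exact Clopper-Pearson 95% interval 0.0998 to 2.94) were on the opposite strand. The interval covers counting error only. By covered bases the opposite-strand share was 2.05%. Over 20208 regions transcribed on 1 strand, opposite-strand peaks made up 1.06%, 1.07%, 0.965% and 1.28% of the peaks there in the 4 lists, shares that lie within that interval.

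Rn45s did not pass the test of day 3 against day 0 in CLIP. Out of every Mb under peaks, the locus took 304 and 241 bases at day 0, and 298 and 367 at day 3. The days overlapped, with day 0 replicate 1 above day 3 replicate 1. On the log2 scale with a pseudocount of 1, day 3 exceeded day 0 by 0.29 ± 0.30 (SE), which limma, fitted to all 12325 regions with peaks in at least 2 libraries, gave an adjusted p of 0.870 (Benjamini-Hochberg). That fit called 0 regions (0%) at an adjusted p of 0.05, and 899 (7.29%) had an unadjusted p under 0.05. The unadjusted p of Rn45s was 0.364. Without the mean-variance trend of the fit its SE was 0.52 and limma's adjusted p 0.992. On simulated data the fit without the trend recovered no changed region, so that missed threshold carries no information on Rn45s. Leaving out a library leaves 1 in its day, which is then assumed to vary like the pair of the other day. Such fits in limma called 377 regions without day 3 replicate 2, 56 without day 3 replicate 1 and 9 without day 0 replicate 1. With 2 libraries per day this comparison could miss a change, and a p above the threshold does not show that the days were alike.

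As a share of its list, Rn45s held 0.0304% and 0.0241% of the peak bases at day 0 and 0.0298% and 0.0367% at day 3. Its share of the summed score was larger by 6.78 to 15.3 times, at 0.253% and 0.219% at day 0 and 0.202% and 0.562% at day 3. The mean score share was 0.236% ± 0.0238 (SD, n = 2) at day 0 and 0.382% ± 0.255 at day 3. The day 3 libraries lay on either side of both day 0 libraries, so the higher day 3 mean rests on replicate 2. That library had a summed score of 447733 over the locus, against 196626, 161886 and 147648 in day 0 replicates 1 and 2 and day 3 replicate 1. With summed score in place of peak bases, the log2 difference was 0.52 ± 0.49 (SE), with 0.834 as limma's adjusted p.

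**Figure D3:**
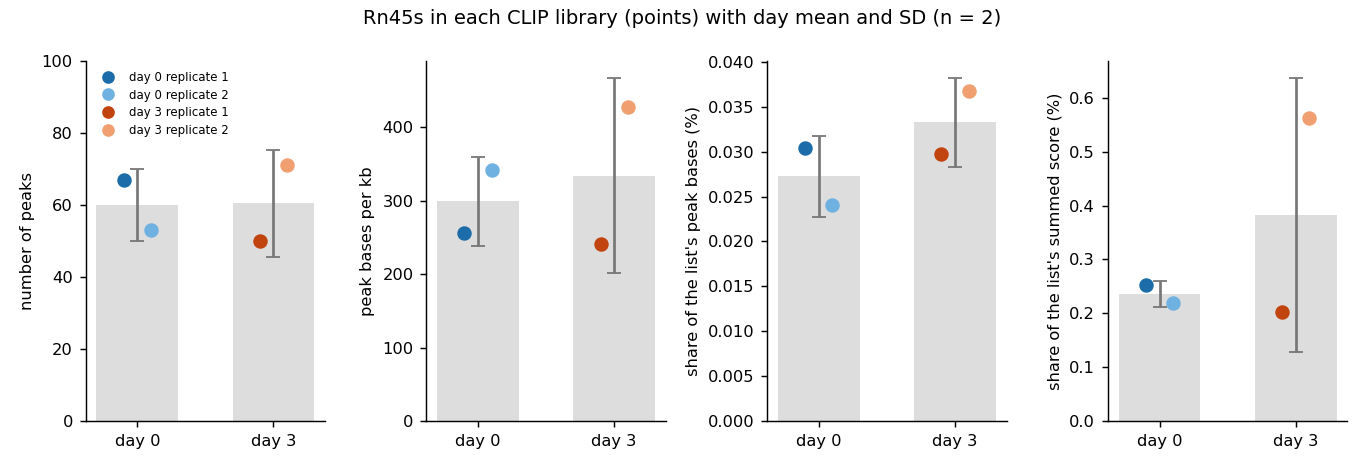
Number of plus-strand peaks over Rn45s, peak bases per kb, share of the list's peak bases and share of its summed score, each from an axis at 0. Points are single libraries, bars are day means and error bars are the SD (n = 2). The points of the days overlap in all 4 panels, and day 3 replicate 2 is the highest in each.

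Nuclear RNA-seq held Rn45s at both days, although the RNA had been depleted of ribosomal RNA. At day 0 a single row of 5838 bases had an FPKM of 4562. At day 3 the locus was split into a 5′ row of 4013 bases, 39979939 to 39983951, with an FPKM of 7595, and a 3′ row of 1667 bases, 39984110 to 39985776, with an FPKM of 1691. Among rows of at least 1 kb with a single transcript identifier, the locus ranked 1 of 8093 at day 0, and its day 3 rows ranked 1 and 2 of 6669. The median of these rows was 3.31 at day 0 and 3.05 at day 3. Shorter and pooled rows reached higher FPKM, and over all rows the locus ranked 1320 of 40668 at day 0 and its 5′ row 598 of 28677 at day 3.

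Compared with day 0, the day 3 level was higher by a log2 of 0.74 when the 5′ row is used, and by 0.36 when both rows are averaged by length (FPKM 5862), an average chosen after the values were seen. Each day had 1 library, so there is no replicate check. Among 3479 regions with such rows at both days the median change was 0.09, and 430 (12.4%) changed by at least 1 in either direction on this scale, log2 of FPKM plus 1. A rise larger than the 5′ row difference was found in 13.6% of them, and one larger than the difference of the average in 31.2%. The 3′ row by itself was lower than the day 0 row by a log2 difference of -1.43, so the sign depended on the row taken. Each single-row difference sets a part of the locus at day 3 against the whole locus at day 0. Levels of the parts were not listed at day 0, so these differences do not show a change of either part. The 5′ row and the average lay above the day 0 row by under 2-fold, and the 3′ row lay below it by over 2-fold. How completely ribosomal RNA was removed from each library was not measured, and its part in these values was not tested.

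CLIP coverage over the 2 day 3 rows followed the order of their RNA-seq levels in 1 of the 2 day 3 libraries. The 5′ row had an FPKM 4.49 times that of the 3′ row. Its CLIP density was 232 and 501 peak bases per kb in the day 3 libraries, and that of the 3′ row was 284 and 293. The order of the 2 rows thus differed between these replicates. In the day 0 libraries the densities were 284 and 361 over the 5′ stretch and 214 and 329 over the 3′ stretch. The 5′ stretch, which makes up 4013 of the 5838 bases of the locus, held 80.1%, 64.3%, 67.2% and 79.96% of the summed score in the 4 libraries. These shares are not corrected for its greater length.

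As a view of abundant RNA in CLIP, Rn45s was set beside the 7 other rows with an FPKM above 500 at either day, a single identifier and a length of at least 1 kb. In mean density over the 4 libraries Rn45s ranked 2 of these 8, with 256 and 342 peak bases per kb at day 0 and 240 and 428 at day 3. By library it ranked 3 and 2 at day 0 and 3 and 2 at day 3. Against only the 5 rows past the limit at the day of the library itself, Rn45s included, it ranked 3, 2, 2 and 1. Only the minus-strand row at chromosome 19, 5795690 to 5802671, with an FPKM of 785 at day 0, had a higher mean. At day 3 that region was listed only in a row of 2 identifiers and 7080 bases with an FPKM of 366. The densities of the chromosome 19 row were 791 and 849 at day 0 and 810 and 847 at day 3, above those of Rn45s in every library. Of its bases, 54.6% were covered in all 4 libraries, against 4.13% at Rn45s. The row with the lower RNA-seq level was thus the more fully and more repeatedly covered of the pair. In every other abundant row the share covered in all 4 libraries was below that of Rn45s, at most 0.583%.

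By score the order turned. Rn45s had a summed score per kb of 33680 and 27730 at day 0 and 25291 and 76693 at day 3, and the chromosome 19 row had 30959 and 19447, then 30179 and 22696. Rn45s was higher in 3 of the 4 libraries and ranked 1 of 8 by the mean.

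The row just below Rn45s in mean density was on chromosome 2, 22443623 to 22445167, minus strand, with an FPKM of 574 at day 0 and 704 at day 3. It had 337 and 66.7 peak bases per kb at day 0 and 338 and 152 at day 3. It was thus denser than Rn45s in both replicate 1 libraries and sparser in both replicate 2 libraries. A plus-strand row on chromosome 2, 98506400 to 98507492, with an FPKM of 995 at day 3, had 111, 110, 95.2 and 108. At day 0 that region was listed only in a row of 3 identifiers and 5102 bases with an FPKM of 533. A long plus-strand row on chromosome 1, 72871004 to 72899048, with an FPKM of 605 at day 3 and 431 at day 0, had 33.1, 71.2, 47.1 and 84.9.

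The other 3 abundant rows carried almost no CLIP peaks. The plus-strand row on chromosome 12, 21549167 to 21551238, had an FPKM of 2606 at day 0, second to Rn45s, and no peak in either day 0 library. At day 3 it was listed only as a row of 454 bases with an FPKM of 12.0, and day 3 replicate 1 had 1 peak there. The plus-strand row on chromosome 9, 3000002 to 3001528, with an FPKM of 649 at day 0 and 197 at day 3, had 1 peak, in day 0 replicate 2. The plus-strand row on chromosome 17, 95154608 to 95155864, with an FPKM of 1333 at day 3 and not listed at day 0, had none in any library. A high FPKM was thus found both with many listed peaks, as at Rn45s, and with 1 or none. Whether CLIP reads can be placed uniquely in the rows with few peaks was not tested.

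The likeness of the 4-library profiles was measured as the Euclidean distance of log2 peak bases per kb plus 1. The nearest to Rn45s were the chromosome 2 minus-strand row (2.85), the chromosome 19 row (2.89), the chromosome 2 plus-strand row (3.13) and the chromosome 1 row (4.94), followed at some distance by the chromosome 9 row (14.7). Around the FPKM limit, the day 0 row just inside was the chromosome 2 minus-strand row at 574, and the row just outside was the chromosome 1 row at 431. At day 3 the chromosome 1 row, at 605, was just inside and a plus-strand row on chromosome 4, 126698568 to 126700867, at 306 was just outside. That row had 10.9, 115, 48.3 and 128 peak bases per kb.

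**Figure D4:**
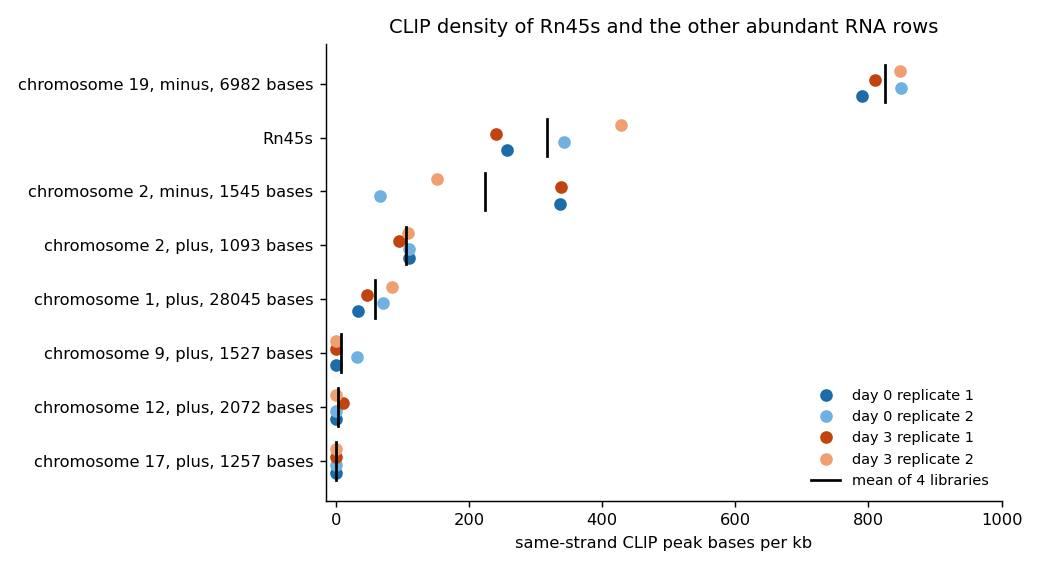
Same-strand CLIP peak bases per kb (x axis) for Rn45s and the 7 other abundant rows (y axis, in order of the mean), with 1 point per library and a black bar at the mean of the 4 libraries. Rn45s lies between 240 and 428, below the chromosome 19 row, while the lowest 3 rows lie at or near 0.

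CTCF ChIP listed no peak over Rn45s. No library had a ChIP peak within 10 kb of it either. The nearest ChIP peak lay 3′ of the locus, at 353 kb in day 0 replicate 1, 53.2 kb in day 0 replicate 2 and 352 kb at day 3. Their scores of 21.5, 17.3 and 17.3 stood against list medians of 26.8, 16.6 and 29.6. The CLIP peaks at Rn45s thus had no listed CTCF DNA site under them, within the limit that repeated sequence may leave reads unplaced, which was not tested.

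Allele calls at Rn45s came from 1 library. The allelic lists covered chromosome 17 for the plus strand of day 0 replicate 1 alone, with 351 cas and 410 mus peaks. Over Rn45s that list had 6 cas peaks and 3 mus peaks, all 9 of them also in the full list. The mus peaks were at positions 89 to 130, 151 to 257 and 4817 to 4847, and 5 of the 6 cas peaks lay between positions 4636 and 5122. With many copies of the sequence in each parental genome, these calls do not assign the peaks to one copy or parent.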

How the data were processed

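CLIP, CTCF ChIP and nuclear RNA-seq files of 9 of the 16 samples were used. The submitters' processing notes name build mm9 and the tools TopHat2 2.0.8, Cufflinks 2.1.1, Novoalign 3.00.03, bedtools 2.17.0, SAMtools 0.1.18, Trim Galore 0.3.3 and cutadapt 1.0, without their roles. For the peak caller, the sources used here give no name. Each peak carries a score that the authors deposited, used to describe and rank peaks within a list. Scores and summed scores were also set side by side between lists, whose median scores ran from 309 to 610. Whether the score has the same scale in each list is not known. RNA-seq rows carry a deposited value read as FPKM because Cufflinks is among the tools. Read depth is unknown for these lists.

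The rows of both days on chromosomes 1 to 19 and X were merged by strand into 42917 regions, and a region took its highest FPKM. Peaks counted with an overlap of at least 1 base. Days were compared by limma 3.58.1 in R 4.3.3 with Benjamini-Hochberg adjustment and a mean-variance trend, which was added after seeing the data, on log2 of peak bases per Mb of the list plus 1. The interval code and the fit were tested on simulated data, where the changes given to the fit were far larger than the difference at Rn45s. Whether the fit can call a difference of the size seen at Rn45s was not tested. Other steps used SciPy 1.17.1, NumPy 2.4.6 and pandas 2.3.3 under Python 3.11.15, with figures from matplotlib 3.10.9. The locus, the abundant rows and the named rows (the top 5 by FPKM and by density, those next to Rn45s in density, and the 5 nearest profiles) were chosen with earlier results of these data known. Rows past the FPKM limit at either day were kept for all libraries. Lists of marker and ribosome biogenesis genes could not be applied, since no mm9 gene positions were used.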

Additional observations from a re-analysis of the deposited data

How the results depend on the processing

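The log2 difference of Rn45s between days stayed above 0 in every alternative run, from 0.12 without scaling to 0.52 with summed score, and from 0.12 to 0.46 when each library was left out in turn (limma, Benjamini-Hochberg adjusted p from 0.800 to 1 over all alternatives). Leaving out a library leaves 1 in its day, whose spread is taken from the other day's pair, so the missed threshold there says nothing about stability. The plan named limma with no mention of the mean-variance trend, which was itself added after seeing the data. Without the trend, the log2 difference of Rn45s was 0.29 (limma adjusted p = 0.992). No region was then called at an adjusted p of 0.05, and 1047 had an unadjusted limma p under 0.05. Since the fit without the trend recovered no changed region on simulated data, a missed threshold under this setting carries no information on Rn45s. With the replicate number as a block the log2 difference was 0.29 (limma adjusted p = 0.899). Deviations of same-numbered libraries had a correlation of 0.0178 over regions, and the labels tie the numbers to nothing shared. The count of regions called, 0 as reported, was 1 by number of peaks and 0 with the block, and ran from 0 to 377 when a library was left out (9 without day 0 replicate 1, 56 without day 3 replicate 1, 377 without day 3 replicate 2). Bases of Rn45s covered in every library used ran from 385 to 578 over 3 libraries, against 241 over 4, since fewer libraries must then coincide: 578 without day 0 replicate 1, 385 without day 0 replicate 2, 489 without day 3 replicate 1 and 388 without day 3 replicate 2. The FPKM difference was 0.36 by the length-weighted mean, an alternative chosen after seeing the data. The rank among abundant rows, 2 of 8, became 1 of 3 above an FPKM of 1000, 6 of 17 with rows of at least 300 bp, 3 of 773 with pooled rows and 1 of 8 by summed score. With only peaks scoring at least the list median, the share of peak bases rose to 0.0469%, 0.0366%, 0.0447% and 0.0600% in the 4 libraries. The share of summed score rose as well, to 0.379% and 0.343% at day 0 and to 0.301% and 0.791% at day 3. Unknown read depth limits all comparisons between lists.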
